A study of Mus musculus with 8 samples.

Results

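Expression of 7 extracellular matrix genes was followed across melanoma cells grown with or without fibroblasts and with or without a BRAF inhibitor: Ogn, Mfap2, Mfap5, Ccdc80, Spon2, Tgm2 and Cd248. They are 7 of 16593 named genes with a probe on the array and encode non-collagen matrix proteins, a matrix cross-linking enzyme and a matrix-binding membrane protein. They were chosen by their gain of signal with PLX4720 or with fibroblasts on these same arrays, with no numeric threshold. Their levels and differences are therefore given as a description, without p-values for single genes. Calls from the fit over all genes are counted later beside the share over all genes, and are no test of the members. All 12 probes annotated to them were examined. Only 1 probe per gene, 7 in all, was detected on at least 2 arrays.

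RNA from the mouse melanoma line 5555-mEGFP was hybridised to 8 Illumina mouse BeadChips, in 4 groups of 2 arrays. The melanoma cells were grown alone (mono-culture) or mixed with MAF2-mCherry melanoma-associated fibroblasts (co-culture), and each culture received either DMSO at 0.1%, the solvent control, or PLX4720, an inhibitor of mutant BRAF, for 24 h. The sample labels give PLX4720 as 1 mM, and the methods used here do not state that dose. Co-cultured mEGFP-positive cells were isolated by FACS, whether the mono-cultures also passed the sorter is not given, and nothing states that the 2 arrays of a group came from separate cultures, so the spread between them may be technical. All 4 groups hold a single tumour line and, in co-culture, a single fibroblast line, both carrying a fluorescent reporter.

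Matrix proteins give tissue its structure and also present signals to cells. Small leucine-rich proteoglycans such as osteoglycin (Ogn) bind collagen fibrils, microfibril-associated glycoproteins such as Mfap2 and Mfap5 bind fibrillin in elastic microfibrils, and tissue transglutaminase (Tgm2) joins matrix proteins by covalent bonds. Ccdc80 and the spondin Spon2 are secreted proteins that can attach to the matrix or to cells, and Cd248 (endosialin) is a membrane glycoprotein known from fibroblasts and pericytes that binds matrix proteins.

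Promoter sequence was available for 2 of the 7 genes, in 3 windows of the RefSeq table for build GRCm38.p6. The 250 bases before the start of Ogn and of the second start of Mfap2 are shown because Ogn differed with PLX4720 and Mfap2 with fibroblasts alone. Capitals mark matches to the motifs searched, on either strand. Ogn lies at chr13:49607765-49608014 on the plus strand and Mfap2 at chr4:141010174-141010423 on the plus strand.
Ogn: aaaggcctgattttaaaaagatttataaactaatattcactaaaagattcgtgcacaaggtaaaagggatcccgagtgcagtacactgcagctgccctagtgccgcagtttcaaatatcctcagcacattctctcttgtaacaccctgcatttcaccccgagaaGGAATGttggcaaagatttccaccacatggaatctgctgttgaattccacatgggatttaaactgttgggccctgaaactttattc
Mfap2: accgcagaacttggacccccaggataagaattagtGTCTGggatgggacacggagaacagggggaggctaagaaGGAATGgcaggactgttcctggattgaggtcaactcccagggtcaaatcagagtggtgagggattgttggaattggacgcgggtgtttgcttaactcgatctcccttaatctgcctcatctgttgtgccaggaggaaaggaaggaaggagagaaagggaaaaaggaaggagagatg
The motifs were TGAGTCA (AP-1), GGAATG (TEAD), CAGAC (SMAD), CACGTG (E-box) and the CArG box. The Ogn window held 1 GGAATG, starting 86 bases before the start, and no other match. The Mfap2 window held 1 GGAATG at 176 bases and 1 CAGAC, on the reverse strand, at 215 bases before the start, and the first Mfap2 window held no match to any of the 5 motifs. Of 32851 promoter windows of this length, 12.6% held GGAATG, 42.2% CAGAC, 4.46% TGAGTCA, 6.02% CACGTG and 1.47% the CArG box. A match is a stretch of letters and was not tested as a binding site.

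On each array, 9755 to 10021 of 25697 probes were detected (detection p under 0.01 against the negative controls of the array). Replicates correlated with r of 0.990 to 0.995 over the 7357 genes tested. Levels below are log2 intensities after background correction and quantile normalization, and intensities are the deposited bead averages before normalization. RNA from more cells with a gene on and more RNA per cell cannot be told apart in these bulk samples. As a check of the treatment, 9 of 12 measured genes of ERK output fell with PLX4720 in mono-culture (18.6% of all genes were lower), and 9 fell and 1 rose in co-culture (12.7% lower and 14.3% higher; limma, adjusted p under 0.05). Among those that fell was Etv4, an ETS factor downstream of ERK, at least 10.7-fold lower in mono-culture and 10.8-fold lower in co-culture.

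Ogn was at background in DMSO and bright with PLX4720 in both cultures. Its probe read 130.3 and 128 in mono-culture with DMSO, 140.3 and 145 in co-culture with DMSO, 1505 and 1262 in mono-culture with PLX4720, and 1350.4 and 2125 in co-culture with PLX4720. All 4 PLX4720 arrays stood above all 4 DMSO arrays, and none of the DMSO arrays reached detection. The log2 level was 10.37 ± 0.21 (SD, n = 2) with PLX4720 against 4.71 ± 0.12 with DMSO in mono-culture, and 10.56 ± 0.36 against 5.004 ± 0.15 in co-culture. Because the DMSO groups held no detected signal, these are bounds: at least 28.2-fold higher in mono-culture and at least 31.9-fold higher in co-culture, calculated against the lowest detected signal of each array or the signal of the probe itself, whichever was higher. The fitted difference in mono-culture was 5.65 (SE 0.19). Between the cultures the PLX4720 levels overlapped, with a co-culture minus mono-culture difference of 0.19 (SE 0.19). Without background subtraction the 2 PLX4720 differences were smaller, 3.44 and 3.52 on the log2 scale, with the same direction.

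The 2 microfibril-associated glycoproteins behaved in different ways. Mfap5 read 134 and 141 in mono-culture with DMSO, 131 and 142 in co-culture with DMSO, 373 and 460.2 in mono-culture with PLX4720, and 306 and 417 in co-culture with PLX4720. Its pattern of detection was that of Ogn, absent on the 4 DMSO arrays and present on the 4 PLX4720 arrays, a pattern held by 93 of 25697 probes (0.362%). Mfap5 was at least 6.54-fold higher with PLX4720 in mono-culture (8.26 ± 0.26 against 4.97 ± 0.05, log2) and at least 4.96-fold higher in co-culture (7.88 ± 0.33 against 4.80 ± 0.27). Co-culture and mono-culture overlapped in PLX4720, where the log2 difference was -0.38 (SE 0.20). Without background subtraction the 2 PLX4720 differences of Mfap5 were 1.58 and 1.37 on the log2 scale, against 3.29 and 3.08 with it.

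Mfap2 followed the fibroblasts and not the drug. Its probe read 132 and 123 in mono-culture with DMSO, 201 and 200.4 in co-culture with DMSO, 138 and 129.95 in mono-culture with PLX4720, and 171 and 251 in co-culture with PLX4720. Both co-culture groups lay above both mono-culture groups, and it was detected on the 4 co-culture arrays alone. Only 6 of 25697 probes (0.0233%) had that pattern of detection, those of H2ac4, Mfap2, Mt4, Nfatc2ip, Olfr1443 and Rbpms. In DMSO, co-culture exceeded mono-culture at least 1.99-fold for Mfap2 (6.54 ± 0.02 against 4.69 ± 0.22, log2) and in PLX4720 at least 1.98-fold (6.53 ± 0.63 against 4.75 ± 0.26). With PLX4720 against DMSO in co-culture the groups overlapped, with a log2 difference of -0.02 (SE 0.26). These signals were dim: without background subtraction the co-culture differences were 0.64 and 0.62 in place of 1.85 and 1.77.

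**Figure D1:**
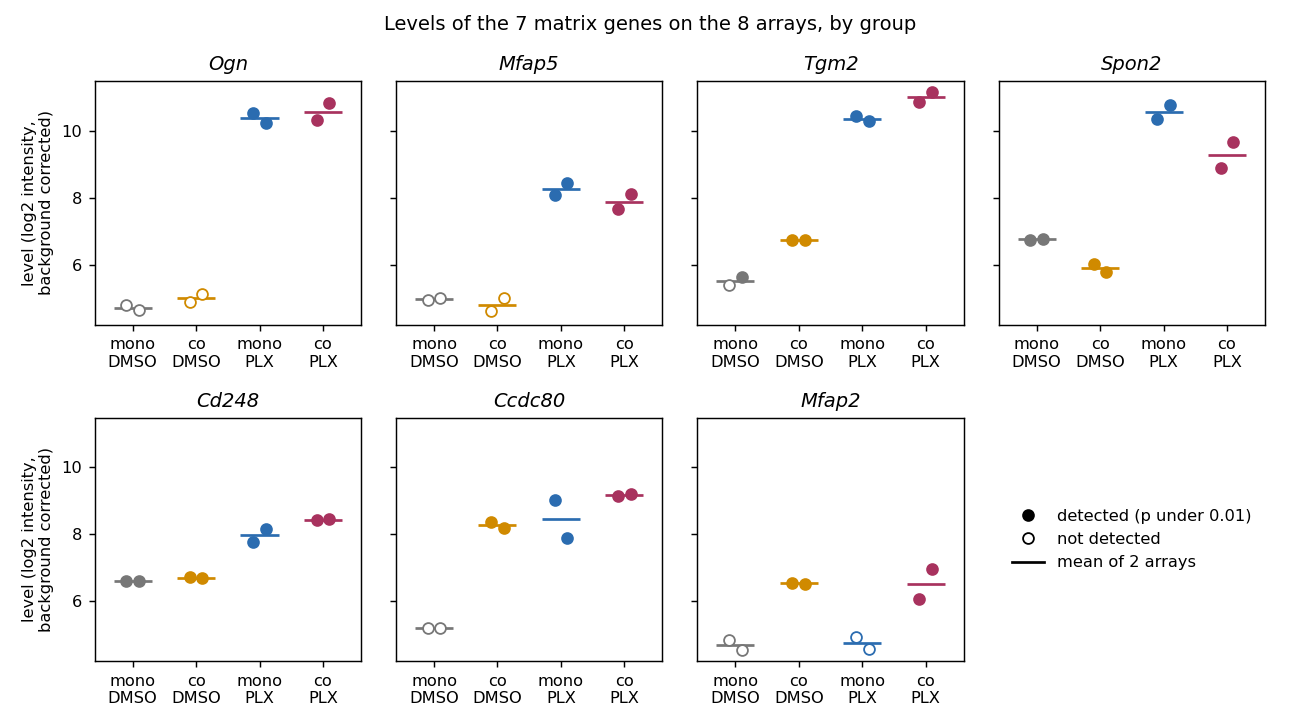
Log2 level of each of the 7 genes (vertical axis, background-corrected log2 intensity) on the 8 arrays by group (horizontal axis), with filled points for detected and open points for undetected arrays and bars for the mean of 2 arrays. Ogn and Mfap5 are filled only on PLX4720 arrays, Mfap2 only on co-culture arrays, and Ccdc80 on all arrays but the 2 of mono-culture with DMSO.

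Ccdc80 was higher with either condition. It read 140.4 and 147 in mono-culture with DMSO, 422 and 392 in co-culture with DMSO, 611 and 351 in mono-culture with PLX4720, and 675 and 766 in co-culture with PLX4720. The mono-cultures with DMSO were not detected and the other 6 arrays were, a pattern held by 19 probes (0.0739%). The 2 arrays of mono-culture with PLX4720 lay far apart, at 9.03 and 7.90 on the log2 scale, and this group overlapped co-culture with DMSO (8.37 and 8.18). Fibroblasts went with a level at least 6.58-fold higher in DMSO (log2 difference 3.07, SE 0.29), and PLX4720 with a level at least 7.54-fold higher in mono-culture (3.27, SE 0.29). Without background subtraction these log2 differences were 1.52 and 1.68.

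On the log2 scale, the further gain of Ccdc80 on top of the other condition was smaller than the gain with either condition alone. With PLX4720 present, co-culture was 1.63-fold above mono-culture (log2 difference 0.71, SE 0.29), and this difference was 0.14 without mono-culture PLX4720 replicate 2 and 1.28 without replicate 1. With fibroblasts present, PLX4720 was 1.87-fold above DMSO (0.90, SE 0.29). The PLX4720 difference was thus 2.36 (SE 0.41) lower in co-culture than in mono-culture on the log2 scale, or 0.97 lower without background subtraction and 1.63 lower with an offset of 50. On the linear background-corrected scale the gain over mono-culture with DMSO was 273 with fibroblasts, 345 with PLX4720 and 541 with both, against a sum of single gains of 618. The log2 gain with both was 3.97 and the sum of the single log2 gains 6.34, so the sum was above the gain with both on either scale. The linear order turned with the array used, as checked after seeing the data: with mono-culture PLX4720 replicate 1 alone the single gains summed to 760.2, and with replicate 2 alone to 475, below 541.

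Spon2 was higher with PLX4720 and lower with fibroblasts. The probe read 204 and 229 in mono-culture with DMSO, 173 and 164 in co-culture with DMSO, 1353 and 1788 in mono-culture with PLX4720, and 579.8 and 1011 in co-culture with PLX4720. It was detected on all 8 arrays, and no pair of the 4 groups overlapped on the log2 scale. PLX4720 was 13.96-fold above DMSO in mono-culture (10.56 ± 0.28 against 6.75 ± 0.01, log2) and 10.4-fold above in co-culture (9.27 ± 0.55 against 5.89 ± 0.17). Co-culture stood at 0.549 of mono-culture in DMSO (log2 difference -0.86, SE 0.24) and at 0.410 in PLX4720 (-1.29, SE 0.24). The other 6 genes held no co-culture difference below -0.38. Without background subtraction the log2 difference with fibroblasts in DMSO was -0.36, and the one with PLX4720 in co-culture was 2.11 in place of 3.38.

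Tgm2 was higher with PLX4720 in both cultures and, by less, higher with fibroblasts. Its intensities were 145 and 161 in mono-culture with DMSO, 214 and 215 in co-culture with DMSO, 1423 and 1312 in mono-culture with PLX4720, and 1941 and 2677 in co-culture with PLX4720. The groups did not overlap in any of the 4 comparisons, with co-culture above mono-culture and PLX4720 above DMSO each time, although only 1 of the 2 arrays of mono-culture with DMSO was detected. PLX4720 was 28.9-fold above DMSO in mono-culture (log2 difference 4.85, SE 0.15) and 19.1-fold above in co-culture (4.25, SE 0.15). Co-culture was 2.36-fold above mono-culture in DMSO (1.24, SE 0.15) and 1.56-fold above in PLX4720 (0.64, SE 0.15). The smaller PLX4720 difference in co-culture, by 0.60 (SE 0.21) on the log2 scale, turned to 0.117 larger without background subtraction, where the 2 PLX4720 differences were 3.19 and 3.31 and the co-culture difference in DMSO 0.48, and on the linear scale the gain with both conditions, 2010, was above the sum of the single gains, 1330.

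In mono-culture, Cd248 had the smallest PLX4720 difference of the 6 genes that were higher with the drug there. It read 195 and 217 in mono-culture with DMSO, 212 and 211 in co-culture with DMSO, 326 and 396 in mono-culture with PLX4720, and 451 and 497 in co-culture with PLX4720. All arrays were detected, and the PLX4720 arrays lay above the DMSO arrays in both cultures. PLX4720 was 2.58-fold above DMSO in mono-culture (7.97 ± 0.28 against 6.60 ± 0.01, log2) and 3.32-fold above in co-culture (8.43 ± 0.01 against 6.70 ± 0.03). Co-culture was 1.38-fold above mono-culture in PLX4720 (log2 difference 0.46, SE 0.14) and 1.07-fold above in DMSO (0.10, SE 0.14). Without background subtraction the 2 PLX4720 differences were 0.80 and 1.09 on the log2 scale.

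**Figure D2:**
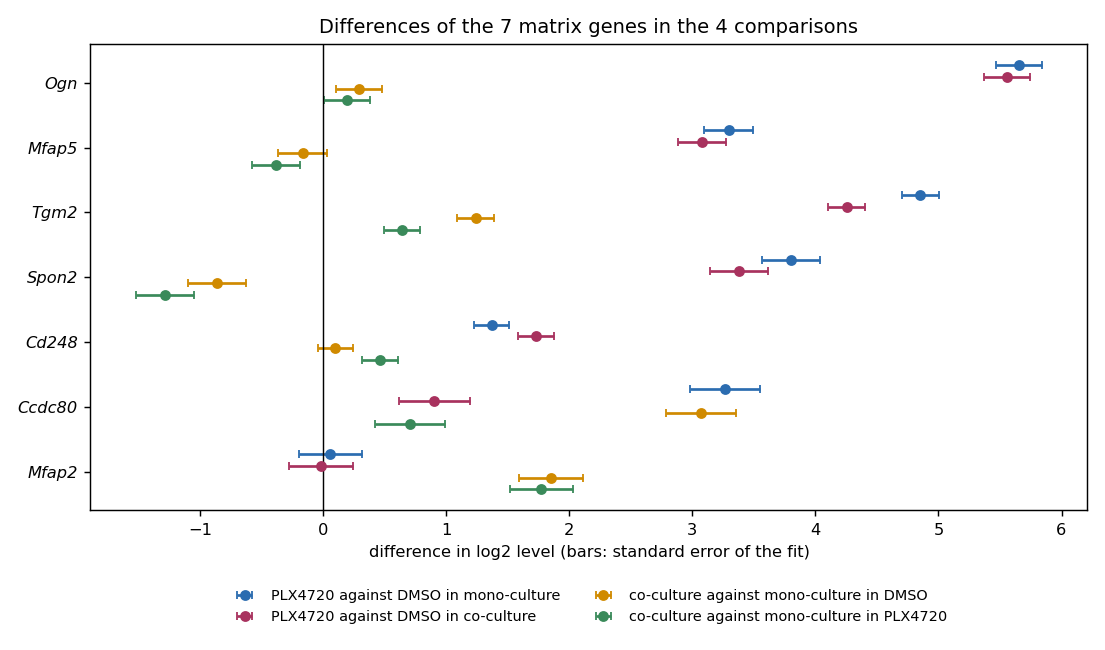
Log2 difference (horizontal axis) of the 7 genes (vertical axis) in the 4 comparisons, coloured by comparison, with the standard error of the fit as bars. The PLX4720 differences of Ogn, Tgm2, Spon2 and Mfap5 lie at 3.08 or more in both cultures, those of Mfap2 lie at 0, and Ccdc80 is near 3 with either condition alone.

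Counted by the fit over all genes, 6 of the 7 were higher with PLX4720 in mono-culture at an adjusted p under 0.05 (limma), where 20.2% of 7357 genes were called higher, and 6 in co-culture, where 14.3% were. In both, the gene not called was Mfap2. In DMSO, 3 were called higher with fibroblasts (Ccdc80, Tgm2 and Mfap2), where 0.625% of all genes were, and 0 lower (1.03%). At an unadjusted p under 0.05 these counts were 3 and 1. In PLX4720, 2 were called higher with fibroblasts (Mfap2 and Tgm2; 3.89%) and 1 lower (Spon2; 3.47%), 3 in either direction against 7.35% of all genes. For how far the PLX4720 response differed between co-culture and mono-culture, 0 of the 7 were called higher (0.0408% of all genes) and 0 lower (0.0816%), in all 0 against 0.122%, while 2 were lower at an unadjusted p under 0.05. Groups did not overlap, with PLX4720 higher, for 6 of the 7 in each culture, against 36.6% of all genes in the mono-cultures and 33.1% in the co-cultures, with PLX4720 lower for 0 in each (34.9% and 32.5% of all genes). Co-culture lay above mono-culture without overlap for 5 of the 7 in DMSO, the undetected Ogn among them (25.2%), and for 4 in PLX4720 (27.5%), and below it for 1 (23.9%) and 1 (26.8%). A change from 0 to 2 of 2 arrays detected was seen for 3 members with PLX4720 in mono-culture, against 1% of all probes, for 2 in co-culture (0.848%), for 2 with fibroblasts in DMSO (0.342%) and for 1 in PLX4720 (0.358%). These counts come from the values that chose the genes. Ogn and Mfap5 entered the test through their PLX4720 arrays and Mfap2 through its co-culture arrays alone, so these genes had to differ to be tested.

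The 5 further probes, 2 of 3 for Ogn, 2 of 3 for Mfap2 and 1 of 2 for Cd248, were detected on no array. Their intensities were 116 to 149.98 for Ogn, 115 to 146 for Mfap2 and 123 to 146 for Cd248, with no detection p below 0.0451. The values of Ogn, Mfap2 and Cd248 thus each rest on 1 probe, as no other probe of the gene was detected. The undetected probes of Ogn and Cd248 had higher mean log2 levels with PLX4720 in both cultures. In mono-culture these were 4.81 against 4.49 and 4.82 against 4.48 for Ogn, and 4.69 against 4.56 for Cd248. Those of Mfap2 had no common direction with fibroblasts. All of these levels lay below detection. Mfap5, Ccdc80, Spon2 and Tgm2 had 1 probe each. Which transcripts each probe covers was not examined here.

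**Figure D3:**
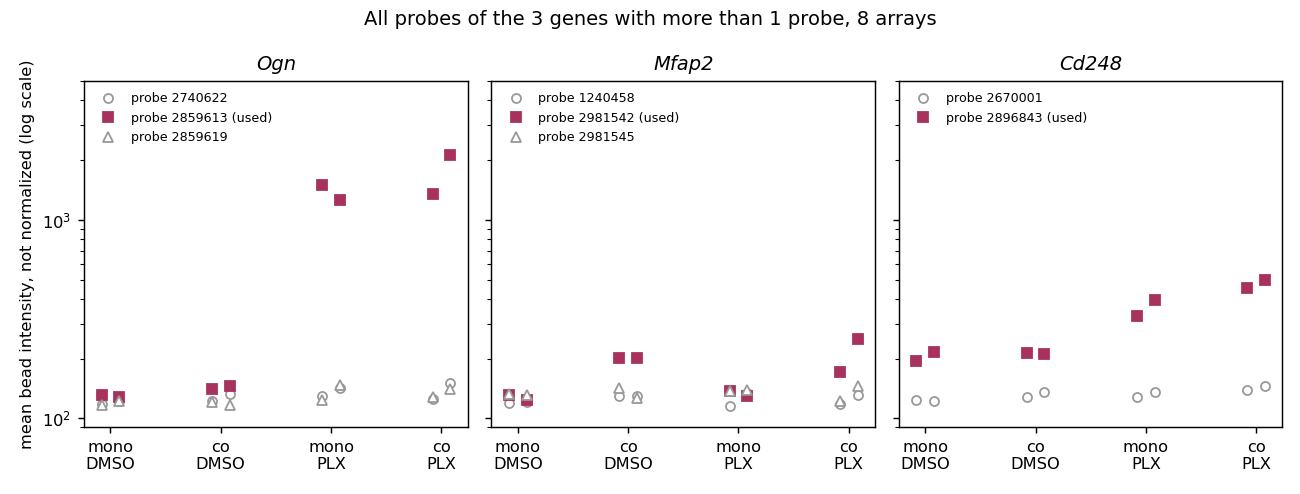
Deposited bead intensity (vertical axis, logarithmic, not normalized) of every probe of Ogn, Mfap2 and Cd248, the 3 genes with more than 1 probe, on the 8 arrays by group (horizontal axis). The open symbols, the probes never detected, stay at 115 to 149.98 throughout, and only the filled squares, the probe used, reach higher intensities.

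Over the 8 arrays, Ogn followed Mfap5 (r = 0.986) and Tgm2 (0.984) most closely among the 7, and Tgm2 followed Cd248 (0.973). Mfap2 stood apart, with r from -0.242 with Spon2 to 0.214 with Tgm2 over 5 of the genes and 0.621 with Ccdc80. These correlations describe 4 group levels more than 8 independent points, and the arrays are shared.

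The genes most like each member over the 8 arrays were Tnfrsf11b, Gbp2, Lrrc15, Map3k12 and Hspb6 for Ogn (r of 0.992 to 0.993) and Lrrc15, Nxn, Smarcd3, Gpx4 and Arhgef19 for Tgm2 (0.991 to 0.996). Lrrc15, a leucine-rich repeat membrane protein, was on both lists, with mean log2 levels of 4.77 in mono-culture and 5.20 in co-culture with DMSO, and 7.30 and 7.48 with PLX4720. Both DMSO means of Lrrc15 lay below the lowest detected level of every DMSO array (5.51 to 5.62), so they are background values. Mfap5 was most like Ids, Idh1, Col5a1, Gamt and Ydjc (0.993 to 0.996), and Spon2 most like Sfxn4, Kctd12, Aamdc, Arrdc4 and Epb41l3 (0.992 to 0.996). Cd248 was most like Tgfbi, a secreted adhesion protein, then Artn, Medag, Olfml3 and Scd1 (0.985 to 0.996). Ccdc80 was most like Luzp1, Vamp7, Dennd1a, Tmem101 and Ets2 (0.958 to 0.978). Mfap2 was most like Gmppb, Stx1a, Rbpms, Slc30a1 and Kdelr3 (0.965 to 0.977). Of these, Rbpms, which encodes an RNA-binding protein, had the same detection pattern as Mfap2 and mean log2 levels of 4.88 and 4.85 in the mono-cultures against 7.40 and 7.33 in the co-cultures. None of the 7 was on another member's list of 5.

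Other matrix genes were tested over 105 further genes of 4 lists (elastic microfibrils, small leucine-rich proteoglycans, matrix cross-linking and adhesive glycoproteins), of which 93 had a probe and 35 were detected well enough to be tested. With PLX4720 in mono-culture, 14 of the 35 rose and 3 fell (limma, adjusted p under 0.05 over all genes), 48.6% in all against 38.7% of all genes, with a median log2 difference of 0.22 against 0.013 over all genes. In co-culture 14 rose and 3 fell, against 27% of all genes, with a median of 0.30 against 0.0052. Members were left out of these counts. Omd, Prelp and Thbs3 were among the 14 in each culture. They were detected on no DMSO array and passed the filter through their PLX4720 arrays alone. The counts thus include genes that had to differ to be tested. Without mono-culture DMSO replicate 1, the mono-culture count was 11 in place of 17.

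Of 4 measured small leucine-rich proteoglycans, the family of Ogn, 2 rose with PLX4720 in mono-culture, 3 rose in co-culture and none fell. Over all genes, 20.2% rose and 18.6% fell in mono-culture, and 14.3% rose and 12.7% fell in co-culture. Omd (osteomodulin), the protein-coding gene next to Ogn on chromosome 13, read 126 and 123 in mono-culture and 134 and 129.6 in co-culture with DMSO, and 210.3 and 217 in mono-culture and 185 and 197 in co-culture with PLX4720. It was detected only with PLX4720 and was at least 2.17-fold higher in mono-culture and at least 1.65-fold higher in co-culture. Prelp, which anchors basement membrane to connective tissue, had the same detection pattern and exceeded its DMSO level at least 2.69-fold in mono-culture and at least 2.77-fold in co-culture. These are both of the genes counted in mono-culture, and both passed the filter through their PLX4720 arrays alone, so they had to differ to be tested. Bgn (biglycan) rose 2.995-fold in co-culture (adjusted p = 0.0004842; limma), where its log2 difference was 1.58 (SE 0.20), and its difference in mono-culture was 0.19 (SE 0.20). Without mono-culture PLX4720 replicate 2 the latter was 0.54 (adjusted p = 0.0271; limma). Aspn and Ecm2, the next genes beyond Omd on the chromosome, had probes that did not pass the detection filter. On the other side of Ogn, Nol8 had no probe. Iars, the gene beyond Nol8, fell with PLX4720 in both cultures. Its log2 difference was -0.77 in mono-culture (limma, adjusted p = 0.003566) and -0.47 in co-culture (limma, adjusted p = 0.04627).

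Of 9 measured genes of elastic microfibrils, the group of Mfap2 and Mfap5, 2 rose and 2 fell in mono-culture and 2 rose and 3 fell in co-culture. Over all genes, 20.2% rose and 18.6% fell in mono-culture, and 14.3% rose and 12.7% fell in co-culture. Adamtsl4, which binds fibrillin microfibrils, rose 3.05-fold in mono-culture (log2 difference 1.61, SE 0.13) and 5.81-fold in co-culture (2.54, SE 0.13), and Emilin1, an elastic fibre glycoprotein, rose 1.70-fold and 1.87-fold. Mfap3l, a membrane protein that shares the name but not the family of the 2 glycoproteins, fell to 0.243 and 0.261 of its DMSO level. Ltbp1, a latent TGF-beta binding protein, fell to 0.668 and 0.594. Emilin1 in mono-culture missed the threshold without mono-culture DMSO replicate 1 (adjusted p = 0.0531), and so did Ltbp1 without that array (0.0779) or without mono-culture PLX4720 replicate 1 (0.078; limma).

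Of 5 measured genes of matrix cross-linking, the group of Tgm2, 2 rose in mono-culture (Plod2, a lysyl hydroxylase, 1.47-fold, and Loxl1, a lysyl oxidase, 1.46-fold) and 1 in co-culture (Loxl1, 1.36-fold). Over all genes, 20.2% rose in mono-culture and 14.3% in co-culture. The adjusted p of Loxl1 ran up to 0.111 and 0.210 when single arrays were left out, and that of Plod2 to 0.0565 without mono-culture DMSO replicate 1 (limma).

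The list of adhesive glycoproteins was broad and also held procollagen enhancers (Pcolce and Pcolce2) and proteoglycans such as Agrn and Hspg2. Of its 17 measured genes, 8 rose and 1 fell in mono-culture, where 20.2% and 18.6% of all genes did. In co-culture 8 rose and 0 fell (14.3% and 12.7% of all genes). Nid2 (a nidogen of the basement membrane) rose 4.17-fold and 4.24-fold, Tgfbi 3.50-fold and 4.80-fold, and Lamb2 (a laminin chain) 3.55-fold and 2.00-fold. Ecm1 rose 2.10-fold in co-culture (log2 difference 1.07, SE 0.14), and its log2 difference in mono-culture was 0.22 (SE 0.14). Thbs1 (a thrombospondin) rose 7.29-fold in mono-culture (log2 difference 2.87, SE 0.28), on arrays of 856 and 474 against 177 and 182, and 1.91-fold in co-culture, a call that was lost without any 1 of the 4 co-culture arrays (adjusted p of 0.105 to 0.137; limma). Thbs3, another thrombospondin counted in both cultures, was detected on the PLX4720 arrays alone, so it had to differ to be tested. Pcolce2, which enhances procollagen processing, was at least 1.70-fold lower in mono-culture. Of the lectin family of Cd248, 1 of 3 genes was measured, Thbd (thrombomodulin), which fell in mono-culture (log2 difference -0.54, SE 0.14, adjusted p = 0.01401; limma).

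**Figure D4:**
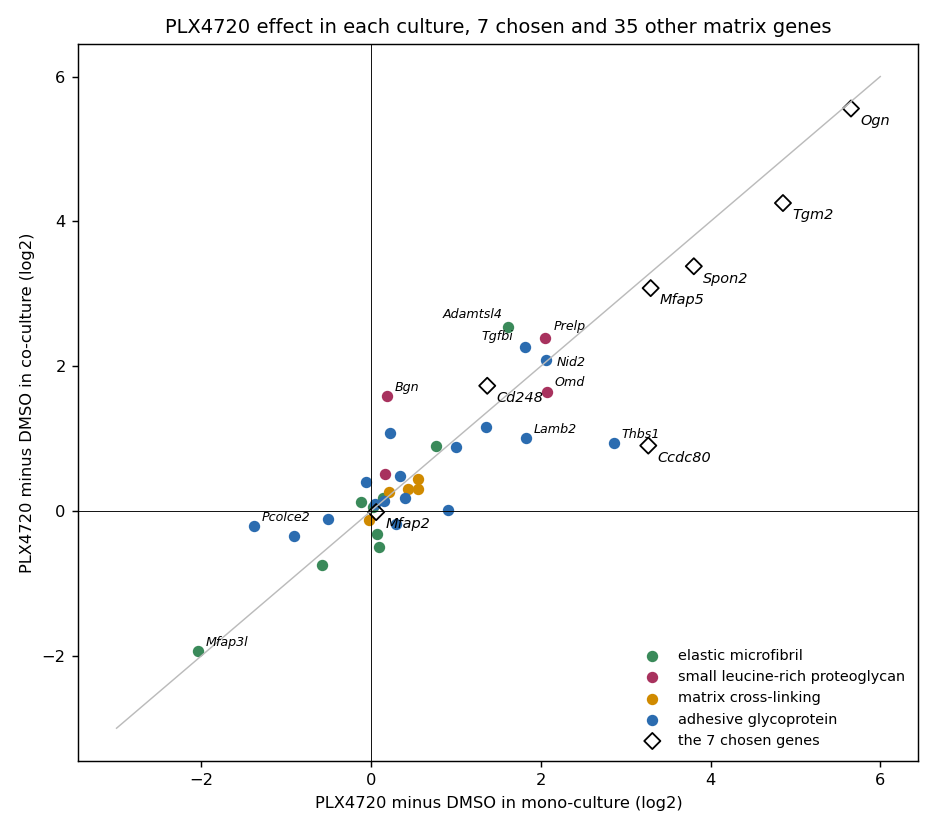
PLX4720 minus DMSO log2 difference in mono-culture (horizontal axis) and co-culture (vertical axis) for the 35 other matrix genes, coloured by list, and the 7 chosen genes (open diamonds), with equality as a grey line. Ogn, Tgm2, Spon2 and Mfap5 lie beyond the other matrix genes on both axes, as their selection implies, and Ccdc80 and Thbs1 lie furthest to the right of the line.

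Across the 35 genes the PLX4720 differences in the 2 cultures, which share no arrays, correlated with r = 0.812 (Spearman 0.806), against 0.785 (Spearman 0.707) over all 7357 genes. They had the same sign for 30 of 35, and for 5536 of all 7357. These are correlations across genes, which are not independent replicates.

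With fibroblasts in DMSO, 0 of 35 rose (2 at an unadjusted p under 0.05) and 3 fell (limma, adjusted p under 0.05), against 1.66% of all genes called: Adamtsl4 to 0.486 of mono-culture (adjusted p = 0.004463), Ecm1 to 0.482 (0.006728) and Nid1 to 0.473 (0.01784). Without co-culture DMSO replicate 1 none of the 3 was called, and without replicate 2 only Adamtsl4 was. Thbs1 had a log2 difference of 1.13 (SE 0.28, adjusted p = 0.08769), with co-culture above mono-culture on every array. It passed under median scaling (0.0433), with array weights (0.0439), with only the 4 arrays compared (0.0266) and without mono-culture PLX4720 replicate 1 (0.00595) or 2 (0.00623; limma). In PLX4720, Bgn rose 1.85-fold (adjusted p = 0.03196), and Hspg2 (perlecan) and Lamb2 fell to 0.570 (0.03085) and 0.663 (0.03991; limma). These 3 are 8.57% of the 35, near the 7.35% of all genes called in that comparison. Each of these 3 calls was lost when certain single arrays were left out, with 0 to 3 genes called over the 8 arrays left out in turn. The lowest count, 0, came without either co-culture DMSO array or without co-culture PLX4720 replicate 1.

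Because the co-cultured cells were sorted away from fibroblasts, markers of fibroblasts are given beside these results. The study used Col1a1, Col1a2, Dcn, Cd248 and PDGF receptor genes as fibroblast markers to check purity. The other markers given here, Acta2 and Vcam1 among them, were added to those. Of 17 markers, Cd248 left out, 7 were detected on no array (Dcn, Col6a2, Lum, Fap, Thy1, Postn and Tagln), and 8 were detected on both arrays of mono-culture with DMSO, 6 of co-culture with DMSO and 10 of each PLX4720 group. The summed linear level of the 17 markers was 2659 to 2885 in mono-culture and 2033 to 2077 in co-culture with DMSO. With PLX4720 it was 9195 to 16561 in mono-culture and 10855 to 11559 in co-culture, most of it from Acta2 (smooth muscle actin). Without Acta2, a sum chosen after seeing the data, it was 2207 to 2213 and 1927 to 1974 with DMSO, and 3558 to 3776 and 3732 to 3939 with PLX4720. Acta2 was detected in mono-culture, without added fibroblasts, and so were markers of the second sum such as Pdgfra, Col5a1 and Vcam1. Neither sum therefore measures how much fibroblast RNA the sorted cells carried.

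Of the 10 of these 17 markers that could be tested, 0 rose with fibroblasts in DMSO, also at an unadjusted p under 0.05. In that comparison 0.625% of all genes rose (limma, adjusted p under 0.05). There 3 of the markers fell (Col6a1, Acta2 and Col3a1), against 1.03% of all genes. In PLX4720, 1 marker rose (Vcam1) and 0 fell, against 3.89% and 3.47% of all genes (limma, adjusted p under 0.05). With PLX4720, 7 rose in mono-culture and 7 in co-culture, where 20.2% and 14.3% of all genes were called higher. In both cultures these were the collagens Col1a1, Col1a2, Col3a1, Col5a1 and Col6a1, Pdgfrb and Acta2. Vcam1 fell in mono-culture (log2 difference -0.62, SE 0.16), where 18.6% of all genes were called lower, and 0 fell in co-culture (12.7%). Col1a1 was detected on the PLX4720 arrays alone, so it had to differ to be tested. Pdgfra was detected on all arrays, with log2 levels of 7.99 and 7.73 in mono-culture and co-culture with DMSO and 8.15 and 7.93 with PLX4720. PLX4720 thus went with higher levels of Ogn, Mfap5 and Cd248 and of collagen genes together in mono-cultures, which held no added fibroblasts. What part any fibroblast RNA had in the levels of Ccdc80 and Mfap2 was not tested by a probe particular to the fibroblast line. Of 7 melanocyte lineage markers with a probe (Mitf, Tyr, Tyrp1, Dct, Pmel, Mlana and Ednrb), 0 were detected on any array, so the labelled melanoma identity had no support from these markers in any group.

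**Figure D5:**
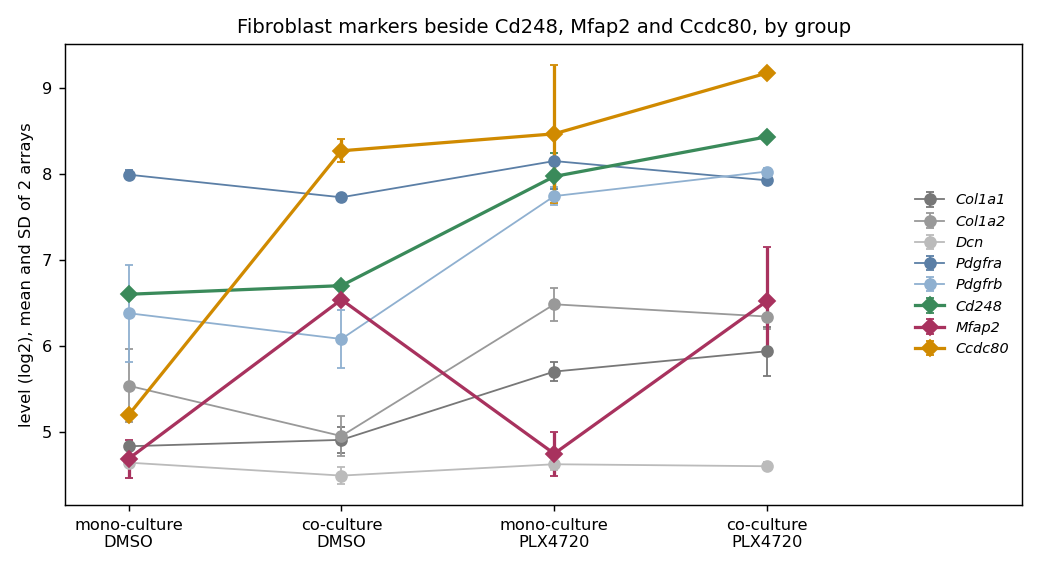
Log2 level (vertical axis, mean and SD of 2 arrays) of 5 fibroblast markers and of Cd248, Mfap2 and Ccdc80 by group (horizontal axis), with lines drawn only to guide the eye. From mono-culture to co-culture in DMSO, Ccdc80 goes from 5.20 to 8.27 and Mfap2 from 4.69 to 6.54, Dcn and Col1a1 are undetected in both, and none of the 4 markers tested, all but Dcn, passed in that comparison (adjusted p of Col1a1 0.8864, Col1a2 0.2389, Pdgfra 0.5143 and Pdgfrb 0.6522; limma).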

How the data were processed

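RNA was measured on 8 Illumina mouse BeadChip arrays, 4 groups of 2. The deposited table held mean bead intensities, not normalized, with a detection p-value per probe and array. The deposited series values were log2 values, equal to quantile-normalized log2 intensities without background subtraction (largest difference 5e-09). The processing notes name lumi, with no version. The build of the probe annotation is not given in the sources used here.

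From the intensities, background was corrected and arrays were quantile normalized with limma 3.58.1 in R 4.3.3 (neqc, offset 16, negative controls inferred from the detection p-values). Of 25697 probes, 23978 had 1 gene symbol and 1719 none, and 23962 matched RefSeq by gene ID. Probes detected (p under 0.01) on at least 2 arrays were kept (10660), with the probe of highest mean per gene (7357 genes, 1953 of them with several kept probes). One linear model was fitted to all 8 arrays with lmFit and eBayes, and p-values were adjusted by Benjamini-Hochberg over 7357 genes, with a threshold of 0.05. Fits were checked on simulated data. With 2 arrays per group, precision is limited by their number.

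The members and gene lists were chosen with earlier results of these data known. The text names the 7 genes and up to 4 genes per matrix list and comparison with the smallest p among those called. It also names the 5 genes of highest Pearson r with each member, and fibroblast markers, of which only some are named by the study. Genes named beyond these, to account for counts and lost calls or as neighbours of Ogn, were chosen after their values were seen. Alternatives were other background corrections, scalings and filters, array weights, a replicate block, the 4 arrays of a comparison alone, and leaving out each array.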

Additional observations from a re-analysis of the deposited data

Results flagged for a closer look

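For 7 of 35 other matrix genes, both co-culture arrays lay on one side of both mono-culture arrays in DMSO and on the opposite side in PLX4720, as they did for 651 of all 7357 genes (8.85%). None of the 7 passed the test of the difference itself in the fit reported (limma, adjusted over all genes), but 3 did under other settings. The co-culture log2 difference of Bgn was -0.51 in DMSO and 0.88 in PLX4720, a change of 1.40 (adjusted p = 0.06952). That of Thbs1 was 1.13 and -0.80, a change of -1.93 (adjusted p = 0.07548), and that of Lamb2 0.23 and -0.59, a change of -0.83 (adjusted p = 0.09682). For Agrn the change was -0.90 (adjusted p = 0.1874), for Ltbp3 -0.59 (adjusted p = 0.2112), for Plod2 -0.26 (adjusted p = 0.5065) and for Sparc 0.15 (adjusted p = 0.6897). None of the 7 chosen genes showed such a change of side. The difference of Thbs1 passed with the replicate block (adjusted p = 0.0474), an offset of 50 (0.0301), median scaling (0.0245), detection on all 8 arrays (0.049) and without mono-culture PLX4720 replicate 1 (0.0453) or 2 (0.00564; limma). That of Bgn passed without background subtraction and with the authors' log2 values (0.0301 in both), with an offset of 50 (0.0296), median scaling (0.0199), detection on all 8 arrays (0.0486) and without mono-culture PLX4720 replicate 1 (0.0177; limma). That of Lamb2 passed without background subtraction and with the authors' log2 values (0.0464 in both; limma). For Bgn and Lamb2 alike, these last 2 settings hold the same data and count as 1 check.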

How the results depend on the processing

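Of 28 member differences, 20 were at least 1.5-fold, and 0 of these changed sign under the 13 alternatives run on them. These alternatives are not all distinct. The authors' log2 values are the same data as those without background subtraction, here and in the counts below. Taking the mean of the kept probes leaves the members unchanged, as each had 1 kept probe. The difference of the Tgm2 PLX4720 effect between cultures reversed to 0.117 without background subtraction and with the authors' log2 values. Of the other matrix genes, 3 were called with fibroblasts in DMSO, 3 in PLX4720, 17 with PLX4720 in mono-culture, 17 in co-culture and 0 for the difference of effects. With fibroblasts in PLX4720 the count was 8 without background subtraction, with an offset of 50 or with the authors' log2 values, 6 with detection on all 8 arrays, 1 with only the 4 arrays compared, and 0 with no filter or with array weights. For the difference of effects it was 3 without background subtraction, with the authors' log2 values or with detection on all 8 arrays, and 4 with an offset of 50 or median scaling. Nothing states that replicate numbers pair the arrays (the deviations of same-numbered arrays correlated with r of -0.0836 to 0.0899). With the replicate block the counts were 3, 4, 16, 16 and 1 (Thbs1). The causes were not tested.

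Leaving out each array gave 0 to 4, 0 to 3, 11 to 19, 12 to 17 and 0 to 2 calls. With fibroblasts in DMSO the count was 0 without co-culture DMSO replicate 1 and 1 without replicate 2. In PLX4720 it was 0 without co-culture DMSO replicate 1 or 2 or co-culture PLX4720 replicate 1, and 1 without mono-culture PLX4720 replicate 1 or 2. With PLX4720 in mono-culture it was 11 without mono-culture DMSO replicate 1. For the difference of effects it was 2 without mono-culture PLX4720 replicate 1 and 1 without replicate 2. A lone array was assumed to vary like the other groups. Probes near background, such as those of Mfap2 and Mfap5, limit what fold changes can be read.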
